A study of Homo sapiens with 12 samples.

Results

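Interferon-stimulated antiviral effector genes were followed in THP-1 cells, an established human monocytic leukaemia line, taken through a model of pyroptosis (inflammatory cell death) and treated with drugs during it. The set holds 50 genes of 78932 rows in the deposited tables. Each was found by its symbol, and each symbol matched 1 row. The genes fall into 11 groups by role: the IFIT, OAS and GBP families, the enzymes of ISG15 conjugation, RNA sensors and RNA-directed effectors, the IFITM family with other membrane proteins, PARP9, PARP14 and DTX3L, SAMD9 and SAMD9L, RSAD2 and CMPK2, TRIM and nuclear body proteins, and IFI44L with other IFI genes.

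There were 4 groups of 3 libraries. CEL cells received LPS and ATP together with cyclosporin A, a calcineurin inhibitor, eltrombopag, a thrombopoietin receptor agonist that also binds iron, and luspatercept, a ligand trap derived from activin receptor IIB. CE cells received the same without luspatercept. LPS cells received LPS, which activates the receptor TLR4, and ATP, with no drug, and NC cells were untreated. The CEL, CE and LPS groups thus share LPS and ATP. Doses and times are not given in the labels used here. All libraries come from 1 cell line, and nothing says that replicates were separate cultures. The p-values therefore reflect library-to-library spread, which may be technical. The headers of the CE columns name a treatment without its drugs, and these columns were assigned to CE because no other group lacked columns, so each value for CE rests on that assignment.

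When a cell meets virus or bacterial LPS, it can make type I interferon, of which interferon beta is the form best known in monocytes. Interferon binds its receptor, JAK kinases phosphorylate STAT proteins, and these join IRF9 to form a complex that binds the interferon-stimulated response element (ISRE) in the promoters of its target genes. The products act on many steps of infection: they bind or degrade viral RNA, attach the ubiquitin-like protein ISG15 to other proteins, hold virus particles at membranes, or deplete nucleotides.

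The promoters are shown because members that move together can be read against the element that this complex binds. RefSeq promoter windows on GRCh38.p14, 250 bases before to 50 after each transcript start, were found for 37 of the 50 members. The ISRE core was searched as GAAA, any 2 bases and GAAA again, on both strands, and matches may overlap each other. It lay in at least 1 window of 27 of these 37 genes (73%), against 4.38% of the 27305 genes with a window. The members were listed as interferon-stimulated genes, so an excess of this element is no result of these data. In 26 of the 27, a match began 4 to 164 bases before a transcript start. In TRIM21 both matches lay after the start. The interferon gamma element GAS, searched as TTC, any 3 bases and GAA, lay in windows of 8 of the 37 (21.6%), against 9.38% of all genes, and the NF-kB consensus in 6 (16.2%), against 7.09%. A match describes letters in a window and does not show that a factor binds there. The search allows only this spacing, so a window without a match is not shown to lack the element. Capitals mark the ISRE cores in 7 members. IFIT1 and IFI44L had large rises in the model, and ISG15 and HERC5 act in 1 pathway. PARP9 and DTX3L are neighbours that diverge, and IFITM3 was the 1 member that rose in CEL against CE. Each window is given 5′ to 3′ on the gene's strand.
IFIT1 at chr10:89392373-89392672, plus strand: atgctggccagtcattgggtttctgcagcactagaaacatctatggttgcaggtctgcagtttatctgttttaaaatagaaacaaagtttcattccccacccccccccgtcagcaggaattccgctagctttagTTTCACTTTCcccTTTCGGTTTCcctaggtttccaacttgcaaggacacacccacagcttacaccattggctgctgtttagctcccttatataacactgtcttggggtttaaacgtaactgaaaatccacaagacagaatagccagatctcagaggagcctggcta
ISG15 at chr1:1013247-1013546, plus strand: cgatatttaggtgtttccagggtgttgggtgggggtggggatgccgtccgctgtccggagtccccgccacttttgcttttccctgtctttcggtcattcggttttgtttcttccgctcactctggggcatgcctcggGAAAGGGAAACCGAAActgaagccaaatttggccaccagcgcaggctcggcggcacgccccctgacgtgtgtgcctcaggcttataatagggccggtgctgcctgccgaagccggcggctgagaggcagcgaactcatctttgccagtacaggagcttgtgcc
HERC5 at chr4:88456869-88457168, plus strand: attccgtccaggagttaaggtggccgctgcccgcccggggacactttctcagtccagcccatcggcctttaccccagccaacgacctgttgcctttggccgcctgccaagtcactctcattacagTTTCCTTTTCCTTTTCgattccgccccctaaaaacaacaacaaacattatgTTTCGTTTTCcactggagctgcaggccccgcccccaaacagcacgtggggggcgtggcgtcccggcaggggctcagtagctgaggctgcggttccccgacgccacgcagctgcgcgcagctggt
IFI44L at chr1:78620198-78620497, plus strand: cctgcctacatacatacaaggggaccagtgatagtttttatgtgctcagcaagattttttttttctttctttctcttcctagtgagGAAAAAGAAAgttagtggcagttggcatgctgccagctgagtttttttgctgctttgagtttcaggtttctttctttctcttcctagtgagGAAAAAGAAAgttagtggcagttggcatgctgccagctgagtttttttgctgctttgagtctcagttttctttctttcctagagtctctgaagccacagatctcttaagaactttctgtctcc
PARP9 at chr3:122564251-122564550, minus strand: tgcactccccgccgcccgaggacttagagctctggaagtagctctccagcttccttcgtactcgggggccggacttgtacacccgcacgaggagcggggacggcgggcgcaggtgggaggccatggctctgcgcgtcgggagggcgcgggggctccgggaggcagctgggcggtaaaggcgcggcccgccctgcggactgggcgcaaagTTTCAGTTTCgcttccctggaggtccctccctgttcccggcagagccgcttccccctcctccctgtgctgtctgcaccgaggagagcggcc
DTX3L at chr3:122564088-122564387, plus strand: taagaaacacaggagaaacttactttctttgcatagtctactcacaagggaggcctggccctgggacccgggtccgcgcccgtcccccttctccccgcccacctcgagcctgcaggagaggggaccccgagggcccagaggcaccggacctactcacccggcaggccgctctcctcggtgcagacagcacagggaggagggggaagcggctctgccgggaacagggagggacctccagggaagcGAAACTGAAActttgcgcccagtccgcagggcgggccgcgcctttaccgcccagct
IFITM3 at chr11:320811-321110, minus strand: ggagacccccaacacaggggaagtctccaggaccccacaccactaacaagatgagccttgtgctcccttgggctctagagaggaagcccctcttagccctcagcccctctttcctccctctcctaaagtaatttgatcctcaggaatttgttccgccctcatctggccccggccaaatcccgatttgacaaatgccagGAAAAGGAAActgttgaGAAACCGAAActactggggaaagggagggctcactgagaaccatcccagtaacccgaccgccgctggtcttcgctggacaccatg
ISG15 holds 2 overlapping cores that begin 113 and 107 bases before the start, and HERC5 holds an overlapping pair plus a core of its own 74 bases before the start. In IFI44L the same core stands in 2 places, 164 and 73 bases before the start. PARP9 and DTX3L are transcribed away from each other, and the single core in each printed window is the same stretch of chromosome 3, from 122564332 to 122564341, read on opposite strands. It begins 41 bases before the PARP9 start and 6 before the DTX3L start.

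**Figure D1:**
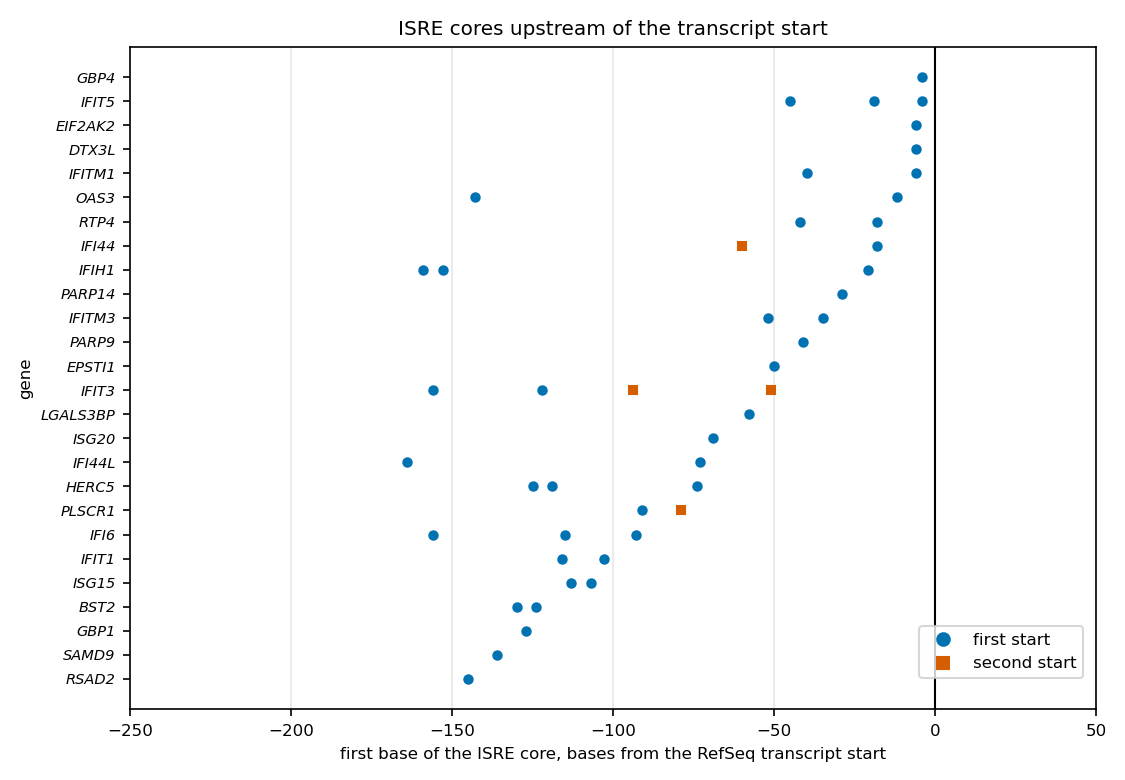
ISRE cores (either strand) upstream of the RefSeq transcript start in 26 members, with the distance of the first base of each core from the start in bases on the x axis and genes on the y axis. Circles and squares mark the first and the second annotated start. The cores lie 4 to 164 bases before a start, with 1 to 4 cores in a gene.

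Each library held 17737213 to 23183429 counts in 21775 to 26123 genes. CPM below are counts scaled to library size with TMM factors, and they serve to compare libraries. TPM, the authors' values per transcript length, serve to compare genes. Of the marker genes of the cell line, CD33 was present throughout, and MPO stayed under 1 CPM. The 5 erythroid and megakaryocyte markers were each under 1 CPM in all libraries, with sums of 0 to 1.5 CPM in CEL, 0.0481 to 0.148 in CE, 0.0444 to 0.0946 in LPS and 0.0457 to 0.332 in NC. The 6 fibroblast, epithelial and endothelial markers were under 1 CPM too, with sums of 0.563 to 1.4 CPM in CEL, 0.193 to 0.541 in CE, 0.0444 to 0.331 in LPS and 0.0457 to 0.623 in NC. Of the 6 lymphocyte markers, 4 were under 1 CPM. Their sum was 2.15 to 2.77 CPM in CEL, 3.00 to 3.42 in CE, 6.63 to 7.24 in LPS and 3.49 to 3.93 in NC libraries. The 9 monocyte markers summed to 164 to 199 CPM in CEL, 196 to 355 in CE, 498 to 532 in LPS and 752 to 786 in NC libraries, and their part in the changes below was not tested. The sum does not describe each marker. Of 8 tested (edgeR, adjusted p under 0.05), 4 were higher and 1 lower in LPS than in NC (22.4% and 23.5% of all tested genes). In CE, 4 were higher and 3 lower than in NC (34.6% and 29.4%), and in CEL also 4 and 3 (34% and 33%). Against LPS, 1 was higher and 3 lower in CE (28.8% and 20.7%), and likewise in CEL (28.7% and 27.2%). In bulk RNA, fewer cells with a transcript and less transcript per cell cannot be told apart.

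The library CE 2 stood apart from CE 1 and CE 3. Its log2 deviation from them had an SD of 0.484 over 7366 well-measured genes, against 0.102 to 0.339 in the other 11 libraries, and over the 49 members the SD was 0.7, against 0.135 to 0.417. Across genes, which are not independent replicates, the deviation of CE 2 correlated with transcript GC content at r = 0.416, inside the range of the other 11 libraries (-0.548 to 0.457). Results without CE 2 and with a GC offset stand beside the comparisons they changed. Several members were much higher in CE 2 than in the other CE libraries. OAS3 had 149, 765 and 209.7 CPM in CE 1, CE 2 and CE 3, DHX58 3.05, 9.63 and 3.42 CPM, LY6E 5.12, 18 and 5.16 CPM and LGALS3BP 0.0492, 1.59 and 0.0482 CPM. Counts for CE are therefore given with and without CE 2.

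The members' summed share of all TPM was 0.653% to 0.675% in CEL, 0.708% to 0.733% in CE, 0.557% to 0.781% in LPS and 0.0483% to 0.0714% in NC libraries. The CEL range lay below the CE range, the LPS range overlapped both, and all 3 stood far above NC. LPS 1 had 0.557%, against 0.754% and 0.781% in LPS 2 and LPS 3. NC 3 had 0.0483%, against 0.0714% and 0.0713% in NC 1 and NC 2. The spread of TPM in LPS and NC cells includes these shifts, whose cause was not tested. The median member had a mean of 79.1 TPM in CEL, 106 in CE, 97.1 in LPS and 3.16 in NC cells. IFITM1, a membrane protein that blocks virus fusion, was highest per length in each LPS-treated group, at 940.2 ± 27.0 TPM in CEL, 998 ± 31.5 in CE and 908 ± 142 in LPS cells (SD, n = 3), and its range did not overlap that of the next gene. In NC cells BST2, IFITM2 and ADAR led, at 111 ± 24.1, 94.9 ± 22.9 and 81.9 ± 17.2 TPM, and their ranges overlapped. IFITM2 ranked 18 in CEL, 28 in CE, 23 in LPS and 2 in NC. At the other end ZBP1, a sensor of Z-form nucleic acid, had 11 counts over the CEL libraries, 33 over CE, 26 over LPS and 2 over NC, and was too low to be tested. The other 49 passed the filter on low counts. Of these, 43 were above its limit in each NC library, while APOBEC3A, ISG20, GBP1, LY6E, LAMP3 and LGALS3BP were below it in some NC library, so that they passed through other groups.

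LPS cells were set against NC cells to compare cells with and without LPS and ATP. Of the 49 tested members, 47 rose in LPS cells and 0 fell (edgeR's quasi-likelihood test, adjusted p under 0.05), whereas 22.4% of the 14065 tested genes rose, 23.5% fell and 45.9% changed either way. In 48 members no LPS library overlapped an NC library; of all genes, 30% had all 3 LPS libraries above NC and 32.5% below. No member fell at an unadjusted p under 0.05, or in DESeq2 or limma, either. The median member stood 4.42 higher on the log2 scale, against -0.01 for all tested genes. Families differed in the size of the rise: the median was 6.48 for the 4 GBP genes, 6.4 for the 4 OAS genes, 5.90 for the 4 IFIT genes, 3.88 for IFITM1, IFITM2 and IFITM3, 3.45 for PARP9, PARP14 and DTX3L and also for the SAMD9 pair, and 2.26 for the 4 TRIM and nuclear body genes. It was 6.50 for IFI44L with other IFI genes, 4.96 for RSAD2 and CMPK2, 3.97 for ISG15 conjugation and 3.94 for RNA sensors and effectors. Ranges overlapped, with 4.44 to 7.72 for GBP, 6.24 to 6.59 for OAS and 5.22 to 7.27 for IFIT genes. IFITM2 and LGALS3BP did not pass the test. Of the 47 that rose, APOBEC3A, ISG20, GBP1, LY6E and LAMP3 were below the filter limit in some NC library. They entered the test through other groups, so their rises are no independent support for the count. On log2(TPM + 1), a scale that understates the change of low genes, limma gave smaller rises for some, such as 4.84 for GBP1, 4.72 for GBP5, 2.46 for LAMP3 and 7.45 for IFI44L. Within batches 1, 2 and 3 of the labels, 48 of 49 members stood higher in LPS each time, by medians of 4.17, 4.12 and 4.15.

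CE cells were set against LPS cells to compare cells with and without cyclosporin A and eltrombopag. Here 14 members rose in CE cells, 14 fell and 21 did not pass the test, against 28.8% of all genes higher, 20.7% lower and 49.6% changed either way. The CE and LPS libraries did not overlap in 31 members (31% of all genes lay wholly higher in CE and 23.7% lower). The median member differed by -0.04, against 0.08 for all genes. These shares lie near those of all genes, and the split depended on scaling: with upper quartile factors, which moved the median of all genes to -0.10, 8 rose and 22 fell, and with a GC offset, added after the data were seen, 11 rose and 21 fell. Without CE 2, 17 rose and 17 fell. By limma on log2(TPM + 1), 8 rose and 4 fell. SP100, LAMP3, IFIT2, OAS1, IFIH1 and GBP4 were among those that rose, and APOBEC3A, IFI44L, DHX58, HERC5 and SAMD9L among those that fell. APOBEC3A passed the filter on low counts through its LPS libraries, so its fall is no independent support for the count. Within batches 1, 2 and 3, members above 0 numbered 22, 20 and 22 of 49.

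CEL cells were set against LPS cells to compare cells with and without all 3 drugs. Of the 49, 6 rose in CEL cells (SP100, OAS1, EIF2AK2, IFI6, IFIH1 and ADAR), 25 fell and 18 did not pass, against 28.7% of all genes higher, 27.2% lower and 55.9% changed either way. The CEL and LPS libraries did not overlap in 35 members (33% of all genes lay wholly higher in CEL and 32.4% lower). The median member was lower by 0.40 on the log2 scale (-0.40), against -0.03 for all genes. APOBEC3A, among the 25 that fell, entered the test through its LPS libraries, so its fall is no independent support for the count. By limma on log2(TPM + 1) 6 rose and 18 fell. Within batches 1, 2 and 3, members below 0 numbered 37, 36 and 31 of 49, with medians of -0.259, -0.340 and -0.372.

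CEL cells were set against CE cells to compare cells with and without added luspatercept. In CEL cells 29 members fell, 1 rose (IFITM3) and 19 did not pass, against 14.8% of all genes lower, 8.78% higher and 23.6% changed either way. The CEL and CE libraries did not overlap in 32 members (14.3% of all genes lay wholly higher in CEL and 20.3% lower). The median member differed by -0.39, against -0.09 for all genes. All 4 IFIT genes, all 4 GBP genes, PARP9, PARP14 and DTX3L, SAMD9 and SAMD9L, RSAD2 and CMPK2, and all 4 TRIM and nuclear body genes fell, as did OAS2 and OASL. Without CE 2, OAS1 was lower too (-0.19). The falls were small, with the largest among called members in GBP1 (1.65-fold lower) and the smallest in SP110 (1.16-fold lower). Within batches 1, 2 and 3, members below 0 numbered 42, 41 and 40 of 49, with medians of -0.361, -0.386 and -0.395, against -0.0127, -0.128 and -0.00803 for all genes. The count rests on the libraries used: 25 fell without CE 1, 33 without CE 2, 19 without CE 3, 22 without CEL 1, 19 without CEL 2 and 27 without CEL 3. It also rests on the tool and the scale, which changed together because limma was run on TPM with its spread pooled over all 4 groups. The part of each was not tested. The median member differed by -0.302 in limma on log2(TPM + 1), near the -0.39 of the count fit. Limma on log2(TPM + 1) called 1 member lower and 0 higher, beside 147 of 13230 genes lower; at an unadjusted p under 0.05 it had 15 members lower and 2 higher. The monocyte markers moved the same way, with 4 of 8 tested lower and 0 higher in CEL (median -0.61), which was not tested as a part of the members' change.

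**Figure D2:**
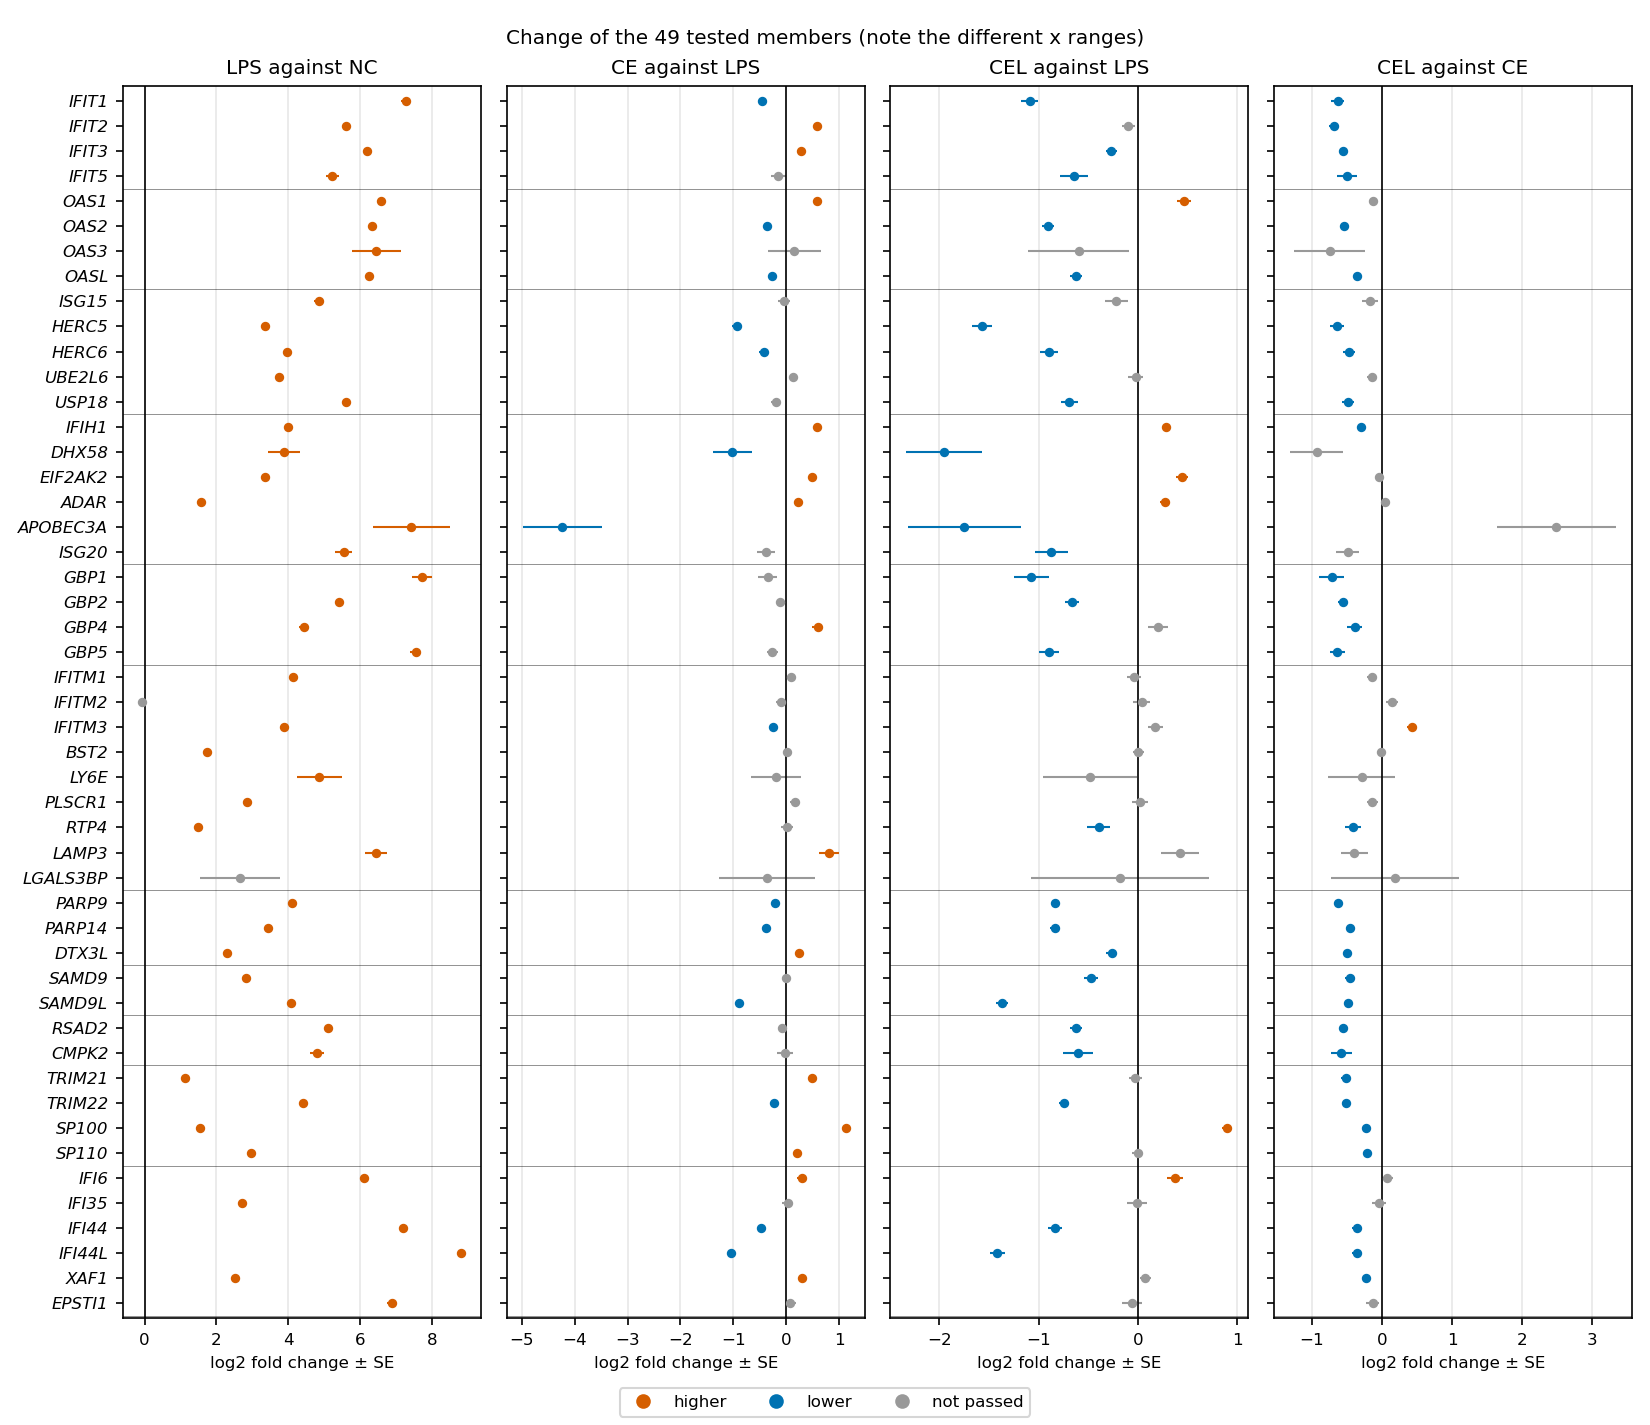
Log2 fold change ± SE of the 49 tested members (rows, in role groups divided by lines) in 4 comparisons, each with its own x range, from edgeR. Orange members rose and blue members fell at an adjusted p under 0.05, and grey members did not pass; 47 are orange for LPS against NC, 14 for CE against LPS, 6 for CEL against LPS and 1 for CEL against CE.

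Against NC, both drug groups stayed high. In CE cells 46 members were higher and 0 lower than in NC (of all genes 34.6% were higher, 29.4% lower and 64% changed either way), and in CEL cells 47 were higher and 0 lower (34%, 33% and 67%). Libraries did not overlap NC in 46 members for CE (35.5% of all genes wholly higher and 31.6% lower) and in 48 for CEL (38.3% and 37.5%). The count of 0 held at an unadjusted p under 0.05 and by DESeq2 and limma, but with upper quartile factors 1 member was lower in each comparison. Without CE 2, 46 members were higher and 0 lower in CE than in NC, and without CE 1, 48 were higher and 1 lower (IFITM2, at -0.33). The median changes were 4.22 for CE and 4.2 for CEL, and within batches 1, 2 and 3 the medians were 4.24, 4.16 and 4.25 for CE and 3.89, 3.89 and 4.14 for CEL. IFI44L, LAMP3 and EPSTI1 were among the largest in both, with IFI44L 169-fold higher in CEL and 217-fold higher in CE cells. LAMP3, a lysosomal membrane protein of dendritic cells, had 1054 counts in CEL, 1390 in CE and 9 in NC libraries. LAMP3 and the other tested members below the filter limit in some NC library entered these comparisons through other groups. In CE cells APOBEC3A, IFITM2 and LGALS3BP did not pass, and in CEL cells IFITM2 and LGALS3BP did not. Without CE 2, OAS3 stood 5.57 above NC in log2 units rather than 6.61, DHX58 2.17 rather than 2.87 and LY6E 3.82 rather than 4.66.

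The IFIT proteins bind viral RNA that lacks the host's cap marks and block its translation, and IFIT3 stabilises IFIT1 on RNA. Their genes form a cluster on chromosome 10 (GENCODE 29, GRCh38), with IFIT2 starting at 89283694 and IFIT5 ending at 89421001. IFIT1 had 164, 184 and 189 CPM in CEL, 294, 251 and 288 in CE, 394, 396 and 354 in LPS and 2.82, 2.47 and 2.00 in NC libraries. IFIT2 had 185, 194 and 200.2 CPM in CEL, 334, 278 and 318 in CE, 217, 205 and 198 in LPS and 4.15, 3.97 and 4.51 in NC libraries. IFIT3 had 346, 357 and 384 CPM in CEL, 565, 497 and 535 in CE, 443, 451 and 416 in LPS and 6.02, 6.12 and 5.77 in NC libraries. In these 3 genes all LPS-treated libraries lay far above NC, and CEL lay below CE without overlap. IFIT5 had 61.7, 65.1 and 70.5 CPM in CEL, 98.5, 84.3 and 95.3 in CE, 108, 109 and 91.2 in LPS and 3.49, 1.92 and 2.80 in NC libraries. In LPS against NC the log2 changes were 7.27 ± 0.12 for IFIT1, 5.62 ± 0.09 for IFIT2, 6.19 ± 0.07 for IFIT3 and 5.22 ± 0.18 for IFIT5 (± SE). The family split in CE against LPS, where IFIT2 rose 1.5-fold (edgeR adjusted p = 2.27e-05) and IFIT3 1.22-fold (adjusted p = 0.00119), IFIT1 fell 1.37-fold (adjusted p = 0.000968) and IFIT5 did not pass (-0.15 ± 0.14). The IFIT3 rise was lost with upper quartile factors. Changes in CEL against CE were close in size to one another, -0.63 ± 0.09 for IFIT1, -0.68 ± 0.07 for IFIT2, -0.56 ± 0.06 for IFIT3 and -0.49 ± 0.14 for IFIT5 (edgeR adjusted p = 0.000379, 4.12e-05, 4.66e-05 and 0.0269). The call for IFIT5 was lost without CE 1, CE 3, CEL 1 or CEL 2. IFIT2 stood near LPS in CEL cells (-0.10 ± 0.07, not passed), while IFIT1 stood 2.13-fold below LPS.

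OAS1, OAS2 and OAS3 sense double-stranded RNA and make short oligoadenylates that activate RNase L, and OASL binds RNA without making them. OAS1, OAS3 and OAS2 lie side by side on chromosome 12 between 112906777 and 113011723, and OASL lies apart at 121019111 to 121039242. OAS1 had 356, 364 and 391 CPM in CEL, 438, 370.1 and 402 in CE, 271, 275 and 260.3 in LPS and 3.11, 2.60 and 2.57 in NC libraries. OAS2 had 553, 572 and 586 CPM in CEL, 881, 766 and 846 in CE, 1071, 1089 and 1050.0 in LPS and 14.4, 12.2 and 13.0 in NC libraries. OASL had 50.6, 52.9 and 50 CPM in CEL, 69.2, 61.4 and 65.9 in CE, 78.0, 80.4 and 77.9 in LPS and 1.04, 1.10 and 0.970 in NC libraries. OAS1 was higher in both drug groups than in LPS, whereas OAS2 and OASL were lower. OAS3 had 317, 201 and 151 CPM in CEL, 149, 765 and 209.7 in CE, 303, 261 and 448 in LPS and 3.74, 4.16 and 3.60 in NC libraries, and its drug and LPS libraries overlapped. In LPS against NC the 4 genes rose by near equal amounts, 6.59 ± 0.09, 6.34 ± 0.08, 6.45 ± 0.69 and 6.24 ± 0.08 for OAS1, OAS2, OAS3 and OASL (log2 ± SE). In CE against LPS, OAS1 rose 1.5-fold (edgeR adjusted p = 2.15e-05), OAS2 fell 1.29-fold and OASL fell 1.2-fold. OAS3 did not pass (0.15 ± 0.51, adjusted p = 0.834); without CE 2 it was lower in CE, at -0.90 (edgeR adjusted p = 0.0234, over a range of 0.0234 to 1 in all settings tried). Between CEL and CE, OAS2 fell 1.46-fold (adjusted p = 0.00013) and OASL 1.28-fold (adjusted p = 0.00104, a call lost without CE 3), and OAS1 did not pass (-0.12 ± 0.07), although without CE 2 it was lower in CEL (-0.19).

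The guanylate-binding proteins are GTPases that coat intracellular bacteria and vacuoles and can switch on caspases of pyroptosis. The 4 genes lie on chromosome 1 between 89052319 (GBP1) and 89272804 (GBP5). GBP1 had 30.1, 30.5 and 32.3 CPM in CEL, 52.4, 46.8 and 53.6 in CE, 66.7, 68.5 and 60.1 in LPS and 0.0831, 0.320 and 0.571 in NC libraries. GBP5, which promotes NLRP3 inflammasome assembly, had 71.2, 72.6 and 78.6 CPM in CEL, 117, 112 and 116 in CE, 139, 141 and 134 in LPS and 0.581, 0.594 and 1.08 in NC libraries. Both were near the detection limit in NC libraries, and both were lowest in CEL among the LPS-treated groups. GBP2 had 64.8, 64.6 and 69.1 CPM in CEL, 103, 89.7 and 97.8 in CE, 105, 108 and 102 in LPS and 2.33, 2.33 and 2.80 in NC libraries. GBP4 had 61.7, 52.7 and 52.7 CPM in CEL, 62.6, 84.1 and 72.3 in CE, 50, 46.6 and 48.7 in LPS and 2.08, 2.42 and 2.17 in NC libraries, and it alone of the 4 was higher in each CE library than in any LPS library. Rises in LPS against NC were 211-fold for GBP1 (log2 7.72 ± 0.28, and 8.31 without NC 3), 187-fold for GBP5, 42.3-fold for GBP2 and 21.8-fold for GBP4. In CE against LPS, GBP4 rose 1.51-fold (edgeR adjusted p = 0.000577), and GBP1, GBP2 and GBP5 did not pass, at -0.35 ± 0.18, -0.11 ± 0.07 and -0.26 ± 0.10. All 4 fell in CEL against CE: GBP1 by 1.65-fold (adjusted p = 0.0132), GBP5 by 1.55-fold (adjusted p = 0.00104), GBP2 by 1.46-fold (adjusted p = 0.000237) and GBP4 by 1.31-fold (adjusted p = 0.0182). The GBP1 call was lost without CE 3, CEL 1 or CEL 2, and the GBP4 call without CE 3, CEL 2 or CEL 3. On the deposited TPM, GBP4 averaged 22.1 ± 4.14 in CEL, 28.6 ± 6.42 in CE and 11.0 ± 2.01 in LPS cells (SD, n = 3). In limma on log2(TPM + 1) its change was 1.29 in CE against LPS, and it was higher in CEL than in LPS (0.94), where the count fit did not pass (0.20 ± 0.10). GBP4 and GBP1 counts were fractional in 8 libraries. GBP2 shares exon sequence with GBP7 on the same strand, so its counts are uncertain to that extent.

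**Figure D3:**
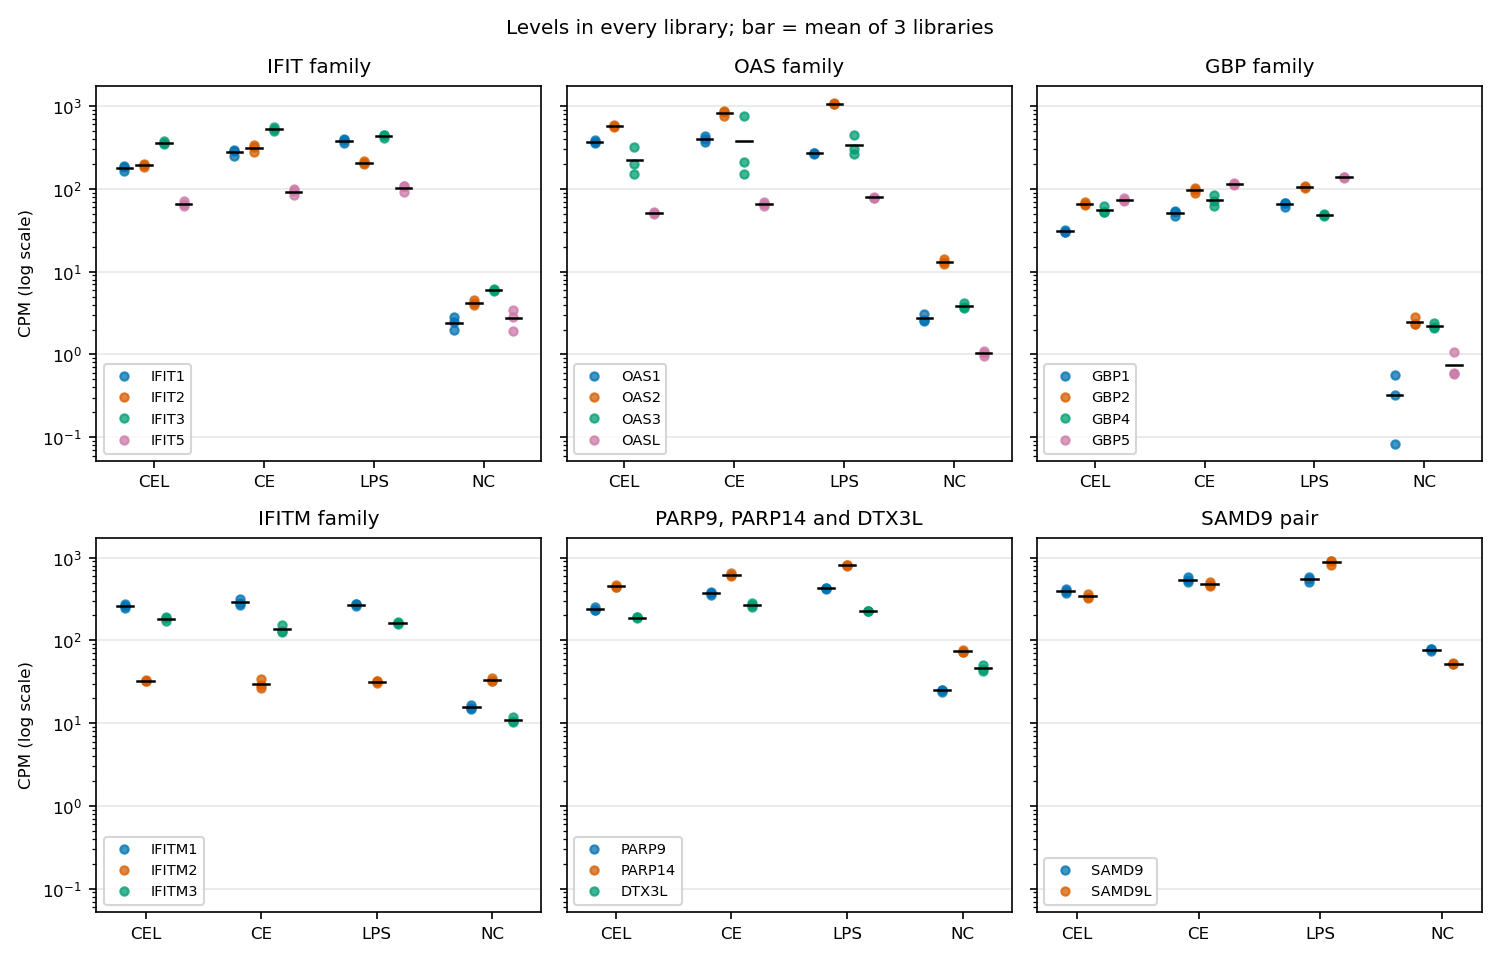
CPM on a log axis in every library for the IFIT, OAS, GBP and IFITM families, PARP9 with PARP14 and DTX3L, and SAMD9 with SAMD9L, by group (CEL, CE, LPS and NC). Points are libraries and bars are means of 3; the LPS-treated groups lie far above NC in each gene except IFITM2, which stays between 26.5 and 34.9 CPM in all 12 libraries.

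IFITM proteins stiffen membranes against virus fusion. Their genes lie together at the end of chromosome 11, IFITM2 from 307631, IFITM1 from 313506 and IFITM3 to 327537. IFITM1 had 248, 259.6 and 278 CPM in CEL, 316, 265 and 283 in CE, 278, 272 and 259 in LPS and 16.7, 15.1 and 14.7 in NC libraries. IFITM2 had 31.9, 32.7 and 33.2 CPM in CEL, 33.8, 26.5 and 28.6 in CE, 32.0, 32.6 and 30.8 in LPS and 34.9, 32.7 and 32.3 in NC libraries, and its groups overlapped. IFITM3 had 173, 186 and 191 CPM in CEL, 152, 127 and 130.5 in CE, 157, 162 and 168 in LPS and 11.9, 10.7 and 10.4 in NC libraries. Its CEL libraries lay above all CE and LPS libraries. IFITM1 rose 17.4-fold in LPS against NC and IFITM3 14.7-fold, while IFITM2 did not pass (-0.07 ± 0.08, edgeR adjusted p = 0.56). Without CE 1, IFITM2 was lower in CE than in LPS (-0.24) and NC (-0.33). In CEL against CE, IFITM3 rose 1.34-fold (log2 0.42 ± 0.07, adjusted p = 0.00151); IFITM1 and IFITM2 did not pass, at -0.14 ± 0.07 and 0.14 ± 0.08. Without CE 2, IFITM1 was lower in CEL than in CE (-0.20) and higher in CE than in LPS (0.16), and without CE 1, IFITM2 was higher in CEL than in CE (0.32). In CE against LPS IFITM3 fell 1.19-fold (adjusted p = 0.0136); leaving out LPS 2, LPS 3 or CE 3 ended that call. The 3 genes are close copies, IFITM1 and IFITM2 overlap in the annotation, and the estimated counts of all 3 were fractional in 12 of 12 libraries, so how reads were shared among them is uncertain. BST2, or tetherin, which holds budding virions on the cell, had 269.6, 271 and 286 CPM in CEL, 303, 262 and 268 in CE, 276, 276 and 274 in LPS and 86.4, 81.4 and 79.7 in NC libraries, and rose 3.33-fold in the model with no further call in either drug comparison. PLSCR1, a phospholipid scramblase, rose 7.18-fold and likewise had no call in CE against LPS, CEL against LPS or CEL against CE, although without CE 2 it was higher in CE than in LPS (0.24) and lower in CEL than in CE (-0.22). LAMP3 had 16.7, 17.2 and 17.4 CPM in CEL, 22.2, 20.9 and 24.3 in CE, 13.0, 12.2 and 13.1 in LPS and 0.208, 0.183 and 0 in NC libraries and rose 1.76-fold in CE against LPS (adjusted p = 0.0039). RTP4, a chaperone of membrane receptors, rose 2.83-fold in LPS against NC, and fell 1.33-fold in CEL against CE (adjusted p = 0.0233); leaving out CE 1, CE 3, CEL 1 or CEL 2 ended that call. LY6E, which blocks coronavirus entry, rose 29-fold in LPS against NC and did not pass in CE against LPS (-0.20 ± 0.47), although without CE 2 it was lower in CE at -1.06 (edgeR adjusted p = 0.0167, over a range of 0.0167 to 0.998 in all settings tried). LGALS3BP, a secreted glycoprotein, had 40 counts over the CEL libraries, 35 over CE, 47 over LPS and 7 over NC, and did not pass in any comparison; nearly all of its CE counts were in CE 2, and without that library it was lower in CE than in LPS (-3.74) and higher in CEL than in CE (3.56).

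ISG15 is a ubiquitin-like protein that UBE2L6 and the ligases HERC5 and, in mice, HERC6 attach to targets, and USP18 removes it and also damps the interferon receptor. ISG15 had 39.7, 37.2 and 35.5 CPM in CEL, 40.1, 49.5 and 37.3 in CE, 43.5, 40.4 and 46.8 in LPS and 1.25, 1.51 and 1.77 in NC libraries. HERC5 had 42.5, 39.3 and 39.3 CPM in CEL, 53.8, 74.5 and 60.9 in CE, 123, 119 and 119 in LPS and 12.4, 11.5 and 11.5 in NC libraries. USP18 had 109, 114 and 119 CPM in CEL, 172, 152 and 156 in CE, 183, 188 and 179 in LPS and 3.61, 3.20 and 4.51 in NC libraries. HERC5 showed a clear step in each group, whereas the ISG15 libraries of CEL, CE and LPS lay close together. In LPS against NC, ISG15 rose 29.1-fold, USP18 49-fold, HERC6 15.7-fold, UBE2L6 13.5-fold and HERC5 10.2-fold. HERC5 fell 1.91-fold in CE against LPS (edgeR adjusted p = 1.19e-05) and a further 1.56-fold in CEL against CE (adjusted p = 0.000817), and HERC6 fell 1.34-fold and 1.39-fold. USP18 fell 1.4-fold in CEL against CE (adjusted p = 0.00141). ISG15 and UBE2L6 did not pass in any comparison among the LPS-treated groups; for CEL against CE ISG15 stood at -0.18 ± 0.12 and UBE2L6 at -0.14 ± 0.07. Without CE 2, UBE2L6 was higher in CE than in LPS (0.20) and lower in CEL than in CE (-0.22). Without CE 1, USP18 was lower in CE than in LPS (-0.29), where it did not pass with all libraries. USP18 counts were fractional in 12 of 12 libraries.

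PARP9 and PARP14 are ADP-ribosyltransferase family members, and DTX3L is the ubiquitin ligase that pairs with PARP9. PARP9 had 235, 235 and 252 CPM in CEL, 379, 357 and 381 in CE, 434, 432 and 421 in LPS and 24.0, 25.2 and 25.3 in NC libraries. PARP14 had 441, 443 and 473 CPM in CEL, 618, 601 and 652 in CE, 808, 799.9 and 819 in LPS and 73.3, 73.0 and 76.3 in NC libraries. DTX3L had 189, 187 and 189.6 CPM in CEL, 251, 279 and 269 in CE, 227, 227 and 227 in LPS and 43.0, 49.7 and 44.6 in NC libraries. In each of the 3 genes CEL was lowest of the LPS-treated groups with no overlap. PARP9 and DTX3L, which share the ISRE core printed above, differed in direction in CE against LPS, where DTX3L rose 1.17-fold (edgeR adjusted p = 0.00365, lost with upper quartile factors and with the GC offset) and PARP9 fell 1.15-fold (adjusted p = 0.00137). All 3 fell in CEL against CE, PARP9 by 1.55-fold (adjusted p = 2.37e-06), DTX3L by 1.41-fold (adjusted p = 7.76e-05) and PARP14 by 1.38-fold (adjusted p = 3.07e-05). Exons of PARP9 and DTX3L overlap on opposite strands, and the strand setting of the counting is not given in the sources used here, so reads there cannot be assigned with certainty.

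SAMD9 and SAMD9L are neighbouring genes on chromosome 7, from 93099513 to 93148369, whose products restrict poxviruses. SAMD9 had 372, 396 and 419 CPM in CEL, 541, 506 and 584 in CE, 559, 580.2 and 508 in LPS and 78.2, 74.1 and 79.6 in NC libraries. SAMD9L had 326, 331 and 363 CPM in CEL, 466, 453 and 508 in CE, 900.1, 913 and 823 in LPS and 53.6, 52.4 and 51.4 in NC libraries. SAMD9L led in LPS cells and SAMD9 in NC cells on the scale of counts, and mean TPM gave the same order. SAMD9L had 176 and SAMD9 102.6 TPM in LPS cells. In NC cells SAMD9L had 9.22 and SAMD9 13.03 TPM, with ranges that overlapped (6.94 to 10.51 and 10.44 to 14.45). In CE against LPS SAMD9L fell 1.85-fold (edgeR adjusted p = 3.54e-07), while SAMD9 did not pass (-0.01 ± 0.07). Both fell in CEL against CE, SAMD9 by 1.38-fold (adjusted p = 0.000594) and SAMD9L by 1.4-fold (adjusted p = 0.000179).

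RSAD2 (viperin) makes a nucleotide that ends viral RNA chains, and CMPK2 is the nucleotide kinase that supplies it. RSAD2 had 91.7, 97.4 and 104 CPM in CEL, 151, 131 and 147 in CE, 156, 149 and 145 in LPS and 4.11, 4.48 and 4.40 in NC libraries. CMPK2 had 44.4, 36.9 and 37.4 CPM in CEL, 49.7, 75.4 and 52.3 in CE, 60.9, 53.4 and 66.2 in LPS and 2.24, 2.33 and 1.83 in NC libraries. CE 2 stood above the other CE libraries for CMPK2 and below them for RSAD2. In CEL against CE, RSAD2 fell 1.47-fold (edgeR adjusted p = 0.000128) and CMPK2 1.49-fold (adjusted p = 0.0182), the second lost without CEL 2 or CEL 3. Neither passed in CE against LPS (-0.07 ± 0.06 and -0.02 ± 0.15). Their exons overlap on opposite strands, with the same limit as for PARP9 and DTX3L.

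Among RNA sensors and effectors, IFIH1 (MDA5) detects long double-stranded RNA, DHX58 (LGP2) tunes it, EIF2AK2 (PKR) halts translation, ADAR edits double-stranded RNA, and APOBEC3A and ISG20 act on viral nucleic acids. IFIH1 had 332, 325 and 351 CPM in CEL, 409, 412 and 421 in CE, 282, 282 and 262 in LPS and 17.6, 17.2 and 16.8 in NC libraries. EIF2AK2 had 232, 220.4 and 243 CPM in CEL, 241, 229 and 247 in CE, 173, 174 and 166 in LPS and 17.2, 17.5 and 15 in NC libraries. DHX58 had 3.38, 2.41 and 2.63 CPM in CEL, 3.05, 9.63 and 3.42 in CE, 10.6, 9.23 and 12.8 in LPS and 0.623, 0.731 and 0.856 in NC libraries. IFIH1 and EIF2AK2 were higher in each drug library than in any LPS library, and DHX58 was lower in each drug library than in any LPS library except in CE 2, which lay inside the LPS range. IFIH1 rose 1.5-fold in CE against LPS (edgeR adjusted p = 4.26e-07) and fell 1.23-fold in CEL against CE (adjusted p = 0.000343), while EIF2AK2 rose 1.4-fold and did not pass in CEL against CE (-0.04 ± 0.06). ADAR rose 3.00-fold in the model and 1.21-fold in CEL against LPS. DHX58 fell 2.02-fold in CE against LPS (adjusted p = 0.0385); the call was lost without LPS 1, LPS 3, CE 1 or CE 3, and without CE 2 the change was -1.74 (adjusted p = 2.17e-05, over a range of 2.17e-05 to 0.281 in all settings tried). In CEL against LPS DHX58 fell 3.86-fold (log2 -1.95, and -1.33 in limma on log2(TPM + 1)), and in CEL against CE it did not pass (-0.93 ± 0.38) but was lower without CE 1 (-1.11). APOBEC3A had 0.130, 0.200 and 0.591 CPM in CEL, 0, 0.0481 and 0.0964 in CE, 1.18, 0.994 and 0.888 in LPS and 0, 0 and 0 in NC libraries, or 18 counts over the CEL libraries, 3 over CE, 65 over LPS and 0 over NC, which makes it at least 21.5-fold higher in LPS than in NC at a floor of 3 counts over the group. The ratio of CE to LPS was 0.0478 (95% counting interval 0.0096 to 0.146) and that of CEL to LPS 0.287 (0.160 to 0.491). APOBEC3A entered the test through its LPS libraries, so its falls from LPS are no independent support. It passed in CE against LPS (edgeR adjusted p = 0.00112; -4.23, and -5.11 without CE 3) and in CEL against LPS (adjusted p = 0.0265, lost without LPS 1, LPS 2, LPS 3, CEL 1 or CEL 2; -1.75, and -2.59 without CEL 3), and not in CEL against CE (adjusted p = 0.0647), where 18 of these counts stood against 3, a ratio of 6.02 (1.76 to 31.9). APOBEC3A overlaps APOBEC3B in the annotation and its counts were fractional in 7 libraries. ISG20, an exonuclease, rose 46.7-fold in the model and fell 1.83-fold in CEL against LPS.

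TRIM21 is a cytosolic antibody receptor, TRIM22 an antiviral ubiquitin ligase, SP100 a scaffold of PML nuclear bodies and SP110 its relative. SP100 had 362, 367 and 410.3 CPM in CEL, 453, 431 and 451 in CE, 210.4, 208 and 194 in LPS and 70.3, 68.7 and 69.7 in NC libraries. TRIM21 had 103, 108 and 108 CPM in CEL, 165, 137 and 155 in CE, 108, 108 and 109 in LPS and 50.9, 45.7 and 51.5 in NC libraries. TRIM22 had 178, 178 and 188 CPM in CEL, 259, 263 and 256 in CE, 314, 316 and 282 in LPS and 14.5, 14.6 and 13.4 in NC libraries. SP100 stood higher in CEL and CE than in LPS with no overlap, TRIM22 stood lower, and TRIM21 stood higher in CE alone. SP100 rose 2.18-fold in CE against LPS (edgeR adjusted p = 1.96e-08) and 1.86-fold in CEL against LPS (adjusted p = 6.21e-08) on the counts. On the deposited TPM it averaged 286 ± 13.3 in CEL, 279 ± 6.92 in CE and 99.3 ± 15.2 in LPS cells (SD, n = 3), and in limma on log2(TPM + 1) its rise in CEL against LPS was larger, at 1.53 in log2 units against 0.90 on the counts. TRIM21 rose 1.41-fold in CE against LPS and fell 1.43-fold in CEL against CE (adjusted p = 0.000272), and TRIM22 fell 1.43-fold (adjusted p = 3.77e-05). The fall of SP100 in CEL against CE was 1.17-fold (adjusted p = 0.00699). It was lost without CE 1, CE 3, CEL 1 or CEL 2 and turned to 0.03 on log2(TPM + 1). SP110 fell 1.16-fold, a call lost without the same libraries. SP100 counts were fractional in 12 of 12 libraries.

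IFI44 and IFI44L are paralogs on chromosome 1 from 78619922 to 78664078, IFI6 is a membrane protein that limits flavivirus replication, XAF1 promotes apoptosis, and EPSTI1 is a stromal interaction protein. IFI44L had 251, 249.9 and 266 CPM in CEL, 306, 333 and 347 in CE, 713, 695 and 639 in LPS and 1.37, 1.83 and 1.31 in NC libraries. IFI44 had 170.3, 172 and 186 CPM in CEL, 225, 219.8 and 229.7 in CE, 321, 324 and 297 in LPS and 1.91, 1.96 and 2.63 in NC libraries. IFI6 had 169.7, 183 and 179 CPM in CEL, 185, 160.1 and 159 in CE, 135, 134 and 142 in LPS and 1.62, 2.24 and 2.17 in NC libraries. EPSTI1 had 173, 187 and 188 CPM in CEL, 215, 185 and 202 in CE, 192, 191 and 187 in LPS and 1.58, 1.14 and 2.11 in NC libraries. IFI44 and IFI44L were highest in LPS and lowest in CEL among the LPS-treated groups with no overlap, IFI6 was higher in the drug groups than in LPS, and EPSTI1 overlapped among the 3. IFI44L had the largest fold rise of the called members in LPS against NC, 449.9-fold (log2 8.81 ± 0.11, edgeR adjusted p = 3.69e-13), while IFI44 rose 146-fold and EPSTI1 119-fold. In CE against LPS, IFI44L fell 2.08-fold (adjusted p = 3.7e-07) and IFI44 1.4-fold. Between CEL and CE, IFI44 fell 1.28-fold, lost without CE 3, CEL 1 or CEL 2, and IFI44L 1.29-fold, lost without CE 3 or CEL 2. IFI6 rose 1.29-fold in CEL against LPS (adjusted p = 0.00215) and 1.22-fold in CE against LPS, the second lost without LPS 2 or CE 1. XAF1 fell 1.17-fold in CEL against CE, lost without CE 1, CE 3, CEL 1 or CEL 2. EPSTI1 and IFI35 did not pass in any comparison among the LPS-treated groups.

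**Figure D4:**
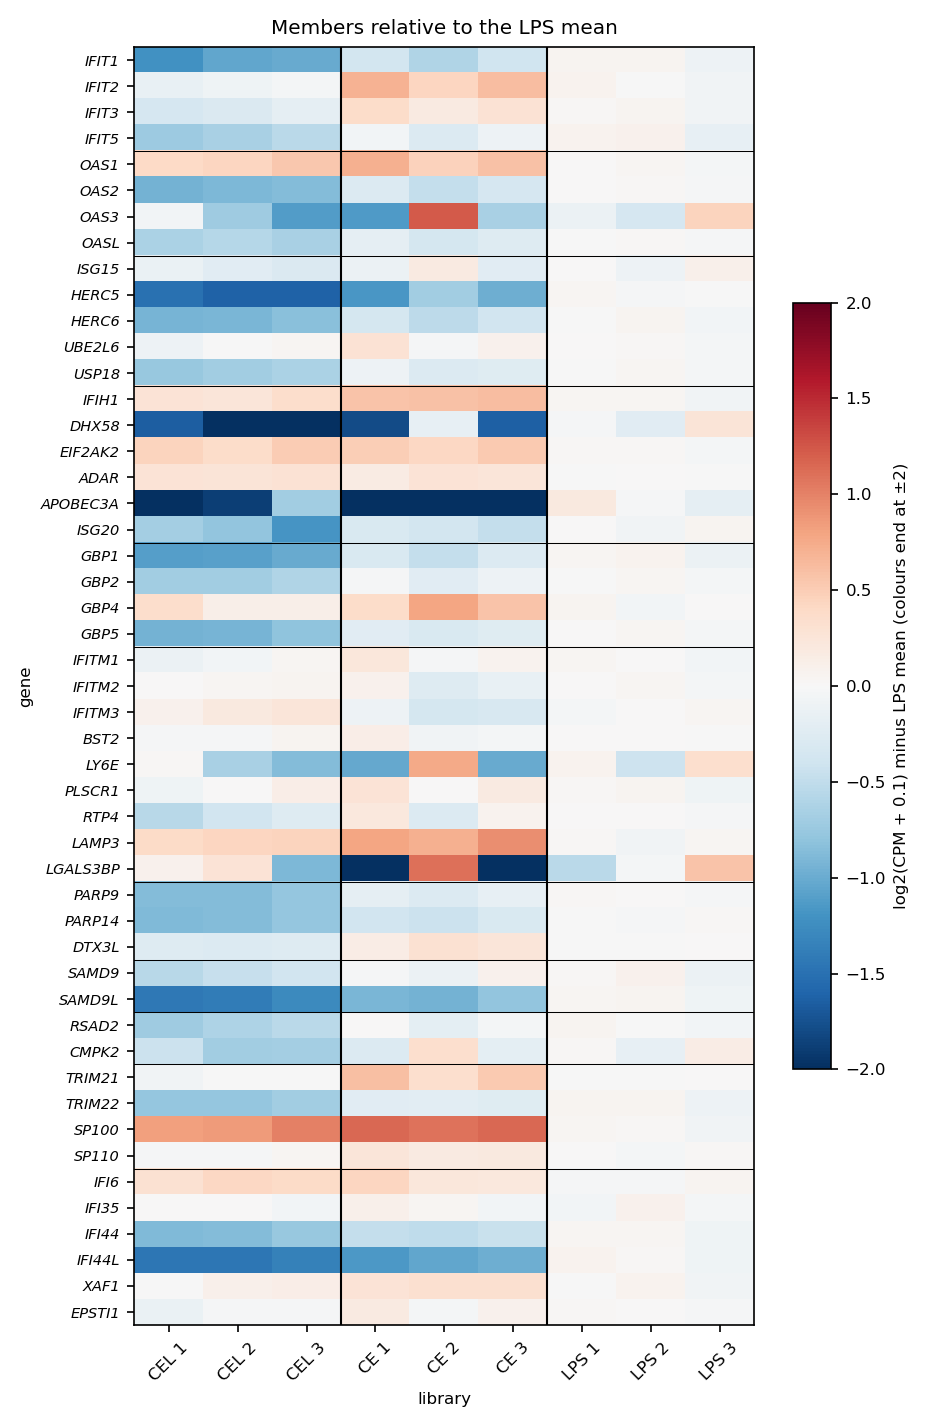
Colour shows log2(CPM + 0.1) minus the mean of the 3 LPS libraries for the 49 tested members (rows) in the CEL, CE and LPS libraries (columns), with colours ending at ±2. Blue rows in CEL include IFIT1, OAS2, HERC5, SAMD9L and IFI44L, red rows in both drug groups include SP100 and OAS1, and OAS3, DHX58, LY6E and LGALS3BP differ between CE 2 and the other CE libraries.

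**Figure D5:**
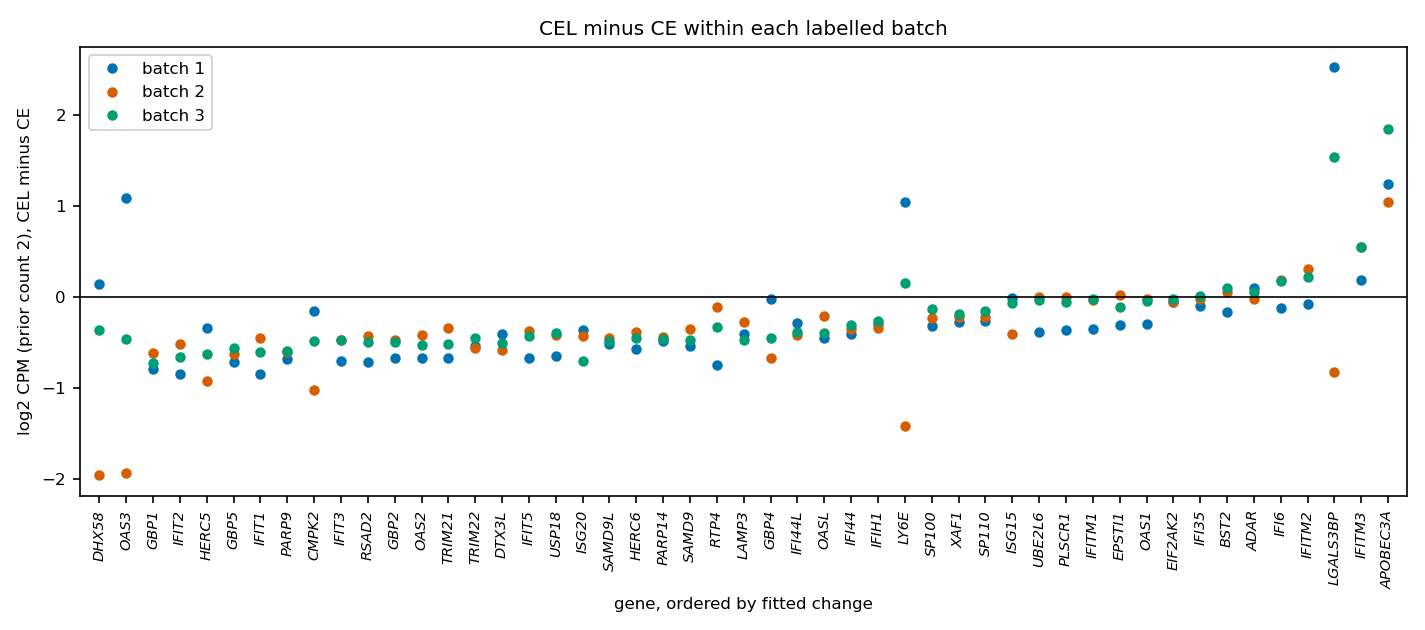
Difference of log2 CPM (prior count 2), CEL minus CE, for each tested member within batch 1, 2 and 3 of the labels, with genes on the x axis ordered by the fitted change. In the 3 batches 42, 41 and 40 of 49 members lie below 0; DHX58, OAS3, LY6E and LGALS3BP spread most, with CE 2 in batch 2.

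The 37 members with a promoter window, split by whether it held an ISRE core, were set side by side as a description. Members without a match to GAAA, any 2 bases and GAAA are not shown to lack an ISRE. OAS1 and XAF1, both among them, hold gaaacgaaa, a different spacing that the search does not match. In LPS against NC the 27 with a core had a median change of 4.12 (1.14 to 8.81) and 26 rose, and the 10 without had 3.36 (1.55 to 6.59) and 10 rose, where 22.4% of all tested genes rose. In CEL against CE the medians were -0.41 with a core, with 16 of 27 lower, and -0.22 without, with 6 of 10 lower, where 14.8% of all tested genes were lower.

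Upstream of these genes, only IFNB1 of 21 interferon ligands had enough counts to be tested. IFNB1 had 0, 2 and 1 counts in the CEL libraries, 8, 3 and 6 in CE, 11, 17 and 13 in LPS and 1, 2 and 2 in NC. Only its LPS libraries reached the filter limit of about 10 counts. IFNB1 thus entered the test through LPS, and its calls that involve LPS are no independent support. It rose in LPS against NC (edgeR adjusted p = 0.00189; count ratio 8.13, 95% counting interval 3.22 to 26.4) and fell in CEL against LPS (adjusted p = 0.00061; ratio 0.076, 0.015 to 0.238) and in CEL against CE (adjusted p = 0.0337; ratio 0.177, 0.0332 to 0.612), each over few counts. Of the 6 receptor genes 5 were tested. All 5 rose in LPS against NC (22.4% of all tested genes), in CE against LPS (28.8%) and in CEL against LPS (28.7%), and in CEL against CE 1 rose and 1 fell (8.78% and 14.8%). IFNGR2, a chain of the interferon gamma receptor, was 5.09-fold higher in LPS than in NC and 2.69-fold higher in CE than in LPS.

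Among 12 JAK, STAT and IRF genes, 8 rose and 1 fell in LPS against NC (22.4% and 23.5% of all tested genes), 4 rose and 3 fell in CE against LPS (28.8% and 20.7%), 4 rose and 4 fell in CEL against LPS (28.7% and 27.2%), and 1 rose and 2 fell in CEL against CE (8.78% and 14.8%). In the last 3 comparisons these counts lie near the shares of all genes. STAT2 had 62.2, 62.1 and 59.0 CPM in CEL, 95.6, 112 and 100.1 in CE, 149, 149 and 152 in LPS and 31.5, 32.3 and 31.6 in NC libraries. Its groups stood in the order LPS, CE, CEL, NC with no overlap. Between CEL and CE, STAT2 fell 1.68-fold (edgeR adjusted p = 7.11e-06). IRF9, a DNA-binding partner of STAT2, rose 8.37-fold in LPS against NC and 1.69-fold in CE against LPS. Of 12 tested sensors and kinases upstream of interferon, 9 rose and 1 fell in LPS against NC, 4 rose and 4 fell in CE against LPS and again in CEL against LPS, and 1 rose and 3 fell in CEL against CE. RIGI, which detects viral RNA ends, fell 1.77-fold in CE against LPS and 1.49-fold in CEL against CE (edgeR adjusted p = 0.000283). Of 7 tested feedback inhibitors, 4 rose in LPS against NC, 1 rose and 1 fell in CE against LPS and in CEL against LPS, and 1 rose in CEL against CE. The shares of all genes just given are the background for the sensors and the inhibitors too.

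Other interferon-stimulated genes, listed apart from the 50, were counted in the same way. Of 43 tested, 37 rose and 1 fell in LPS against NC (22.4% and 23.5% of all tested genes), 12 rose and 14 fell in CE against LPS (28.8% and 20.7%), 7 rose and 20 fell in CEL against LPS (28.7% and 27.2%), and 3 rose and 19 fell in CEL against CE (8.78% and 14.8%). CXCL10, a T cell chemokine, fell 2.16-fold in CEL against CE (edgeR adjusted p = 1.35e-05). MX1, the antiviral GTPase, went the other way, with 148, 146 and 153 CPM in CEL, 22.7, 22.9 and 23.7 in CE, 273, 262 and 262 in LPS and 2.53, 2.69 and 2.80 in NC libraries, and rose 6.45-fold in CEL against CE (adjusted p = 5.28e-11). IFI27 rose 3.13-fold in the same comparison.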

How the data were processed

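RNA-seq of 12 THP-1 libraries, 3 in each of 4 groups, was available as gene tables. The deposited counts are estimated counts per gene (29.3% of the nonzero values were not whole within 0.005) and were rounded to whole numbers. The authors also deposited TPM values per gene, used only for levels between genes and for limma. The genome build was hg38, per the submitters' processing notes; which aligner, counter, strand setting and annotation were used is not given in the sources used here. Libraries were grouped by the labels.

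Of 78932 rows (42745 with a symbol), 14065 genes passed edgeR's filterByExpr. All 12 libraries entered 1 quasi-likelihood fit (edgeR 4.0.16 in R 4.3.3, TMM factors 0.918 to 1.1, 8 residual degrees of freedom, biological coefficient of variation 20.13%). P-values were adjusted over all tested genes by Benjamini-Hochberg, with a threshold of 0.05. The SE of a log2 change is its size divided by the square root of F. Intervals and floors (3 counts over a group, 95% level) cover counting error only. The depth of 17737213 to 23183429 counts a library leaves genes with few counts imprecise. Alternatives were other scaling factors, no filter, DESeq2 1.42.0, limma 3.58.1 on log2(TPM + 1), with genes of mean TPM of at least 0.5, a batch block, fits without each library, and a GC offset. The script was tested on simulated data with less spread between libraries and fewer changed genes than here. That test does not measure its error rate in these data.

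The labels give replicates 1, 2 and 3 of every group a batch of the same number, so numbers pair libraries by label. In the data, deviations from group means over 7460 genes correlated above 0.1 in 6 of 18 same-numbered pairs (r from -0.857 to 0.728), and 1 library correlated best with one of its own number.

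The members and the gene lists were chosen with earlier results of these data known. All 50 members were named in role groups. Values in every library were given for the IFIT, OAS, GBP and IFITM genes, PARP9, PARP14, DTX3L, SAMD9, SAMD9L, ISG15 and USP18, for up to 4 further called members with the largest change each way per comparison, and for a few others chosen after their values were seen (BST2 and TRIM22). From each list of other pathway genes at most 4 were named per comparison, by smallest p. An item of these lists is not reported here. Positions are from GENCODE 29 on GRCh38 and promoter sequences from RefSeq on GRCh38.p14.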

Additional observations from a re-analysis of the deposited data

How the results depend on the processing

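In LPS against NC, 48 of 49 members kept their call, or stayed without one, under every alternative that tested them. The same held for 47 in CE against NC and 47 in CEL against NC. The count was 14 in CE against LPS, 25 in CEL against LPS and 9 in CEL against CE. For a member without a call in both fits, the direction was not compared. In CE against LPS, members higher numbered 8 with upper quartile factors, 8 with no low-count filter, 8 with limma on log2(TPM + 1), 7 on log2(TPM + 0.1), 5 without the filter on low TPM and 5 in limma without CE 2. Members lower numbered 22 with upper quartile factors, 4 under each of the first 3 limma settings and 6 in limma without CE 2. In CEL against LPS, members higher numbered 3 with no low-count filter and 3 in limma with no filter, and members lower numbered 16 in limma on log2(TPM + 0.1) and 16 with no filter. In CEL against CE, members higher numbered 2 with no low-count filter and 0 in limma on log2(TPM + 1), with no filter and without CE 2 (unadjusted 2, 2 and 1). Members lower numbered 1 in limma on log2(TPM + 1) and 0 on log2(TPM + 0.1), with no filter and without CE 2 (unadjusted 15, 15, 15 and 10). With upper quartile factors 1 member was lower in CE against NC and 1 in CEL against NC. Those factors moved the median of all genes to -0.124 in LPS against NC, -0.0976 in CE against LPS, -0.166 in CEL against LPS, -0.201 in CE against NC and -0.241 in CEL against NC.

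Leaving out 1 library gave 47 to 48 members higher and 0 to 0 lower in LPS against NC, 12 to 17 higher and 12 to 17 lower in CE against LPS, 6 to 6 higher and 22 to 25 lower in CEL against LPS, 1 to 2 higher and 19 to 33 lower in CEL against CE, 46 to 48 higher and 0 to 1 lower in CE against NC, and 47 to 48 higher and 0 to 0 lower in CEL against NC. OAS3 in CE against LPS ran from -0.90 (without CE 2, reversed) to 0.47 (without CE 1) when 1 library was left out. PLSCR1 reversed in CEL against LPS with the GC offset, at -0.17. SP100 reversed in CEL against CE, at 0.034 in limma on log2(TPM + 1), 0.034 on log2(TPM + 0.1), 0.034 with no filter and 0.052 without CE 2. With the replicate block, 47 members were higher and 0 lower in LPS against NC, 14 and 14 in CE against LPS, 6 and 25 in CEL against LPS, 1 and 29 in CEL against CE, 46 and 0 in CE against NC and 47 and 0 in CEL against NC, and the pairing changed no member's call. The GC offset and the limma fits without CE 2 were chosen after seeing the data. The cause was not tested for any of these changes. At this depth APOBEC3A, LGALS3BP and IFNB1 rest on few counts.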
